A study of Mus musculus with 10 samples.

Results

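Saliva fluid and ion transport was followed through 38 genes that were listed by name: water channels, receptors for the signals that start secretion, calcium release channels, chloride, potassium, sodium and bicarbonate transporters, and carbonic anhydrases. A gene was represented by its brightest probe set with 1 gene symbol. Of the 38 genes, 35 had such a probe set, and all 35 passed the filter on low values, among 18826 genes tested in all. Adrb1 and Slc4a7 had no probe set under their symbol in the tables used here, Fxyd3 shared its probe set with another gene, and these 3 were not analysed here. The values came from 10 arrays of salivary gland cells, each read as 1 mouse. All mice were female NOD/shiLtJ, an inbred strain prone to autoimmune diabetes and to lymphocyte infiltration of the salivary glands. They formed 3 groups: 4 mice with type 1 diabetes at 21 weeks, 3 mice without diabetes at 21 weeks and 3 mice without diabetes at 6 weeks. The gland was digested with enzymes before RNA was taken, and the labels name neither the gland nor the duration of diabetes.

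Saliva is made in stages. Acinar cells, the secretory end pieces of the gland, take up chloride from the blood side through the cotransporter Slc12a2. When acetylcholine acts on muscarinic receptors, calcium leaves its stores and opens the chloride channel Ano1 on the luminal side, potassium channels keep the cell electrically negative, and sodium and then water follow, the water largely through Aqp5. Duct cells then take back sodium and chloride through the epithelial sodium channel (subunits Scnn1a, Scnn1b and Scnn1g) and Cftr, and add bicarbonate, so that the final fluid is dilute.

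Values are log2 intensities, so a difference of 1 is a factor of 2. Changes are differences of group means with the standard error of a limma fit over all 10 arrays, and adjusted p-values (Benjamini-Hochberg over all 18826 genes, threshold 0.05) come from that fit. The labels number the samples within each group, and each array was read as a separate animal. In bulk samples like these, fewer cells of a type and less RNA per cell cannot be told apart. Nondiabetic 21-week array 3 had the lowest correlations with the other arrays (0.917 to 0.961, against 0.934 to 0.983 among the other 9). Its median over all probe sets was also the lowest, at 3.53, against 3.62 to 3.69 on the other 9. Diabetic array 4 had higher lymphocyte markers (mean of 5 B cell markers 5.40, against 3.67 to 4.08 in the other diabetic arrays). The members and wider genes that passed are also given without both arrays. Among acinar markers, Pip lay between 11.99 and 12.44 and Prol1 between 12.36 and 12.68 over all arrays. Others varied widely between arrays, such as Dcpp1 (3.11 to 11.16) and Dcpp2 (5.01 to 13.08). Between diabetic and nondiabetic mice of 21 weeks 207 genes were higher and 64 lower (130 and 100 after quantile normalization). Against 6-week mice 170 were higher and 102 lower in diabetic mice (157 and 162 after quantile normalization). Between the nondiabetic ages 1 was higher and 4 lower.

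The first comparison asked how the transport genes of diabetic glands differ from those of nondiabetic glands of the same age. The duct sodium channel subunit Scnn1b fell 2.17-fold and the sodium bicarbonate cotransporter Slc4a4 rose 1.91-fold. The other 33 members did not pass the test. Among genes of acinar fluid secretion, the change of Aqp5 was 0.10 ± 0.16 and that of the muscarinic receptor Chrm3 0.03 ± 0.13. The 2 members that passed are 5.71% of the 35, against 1.44% of all genes tested. The members were chosen with earlier results of these data known, so such shares are descriptions only. At an unadjusted p under 0.05 there were 11 members (31.4%, against 15.8% of all genes), of which 4 were higher and 7 lower in diabetic mice. In 13 members (37.1%, against 14.1% of all genes) no array of one group reached into the other, with 4 higher and 9 lower. The median change over the 35 was 0.02, against 0.03 over all genes.

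**Figure D1:**
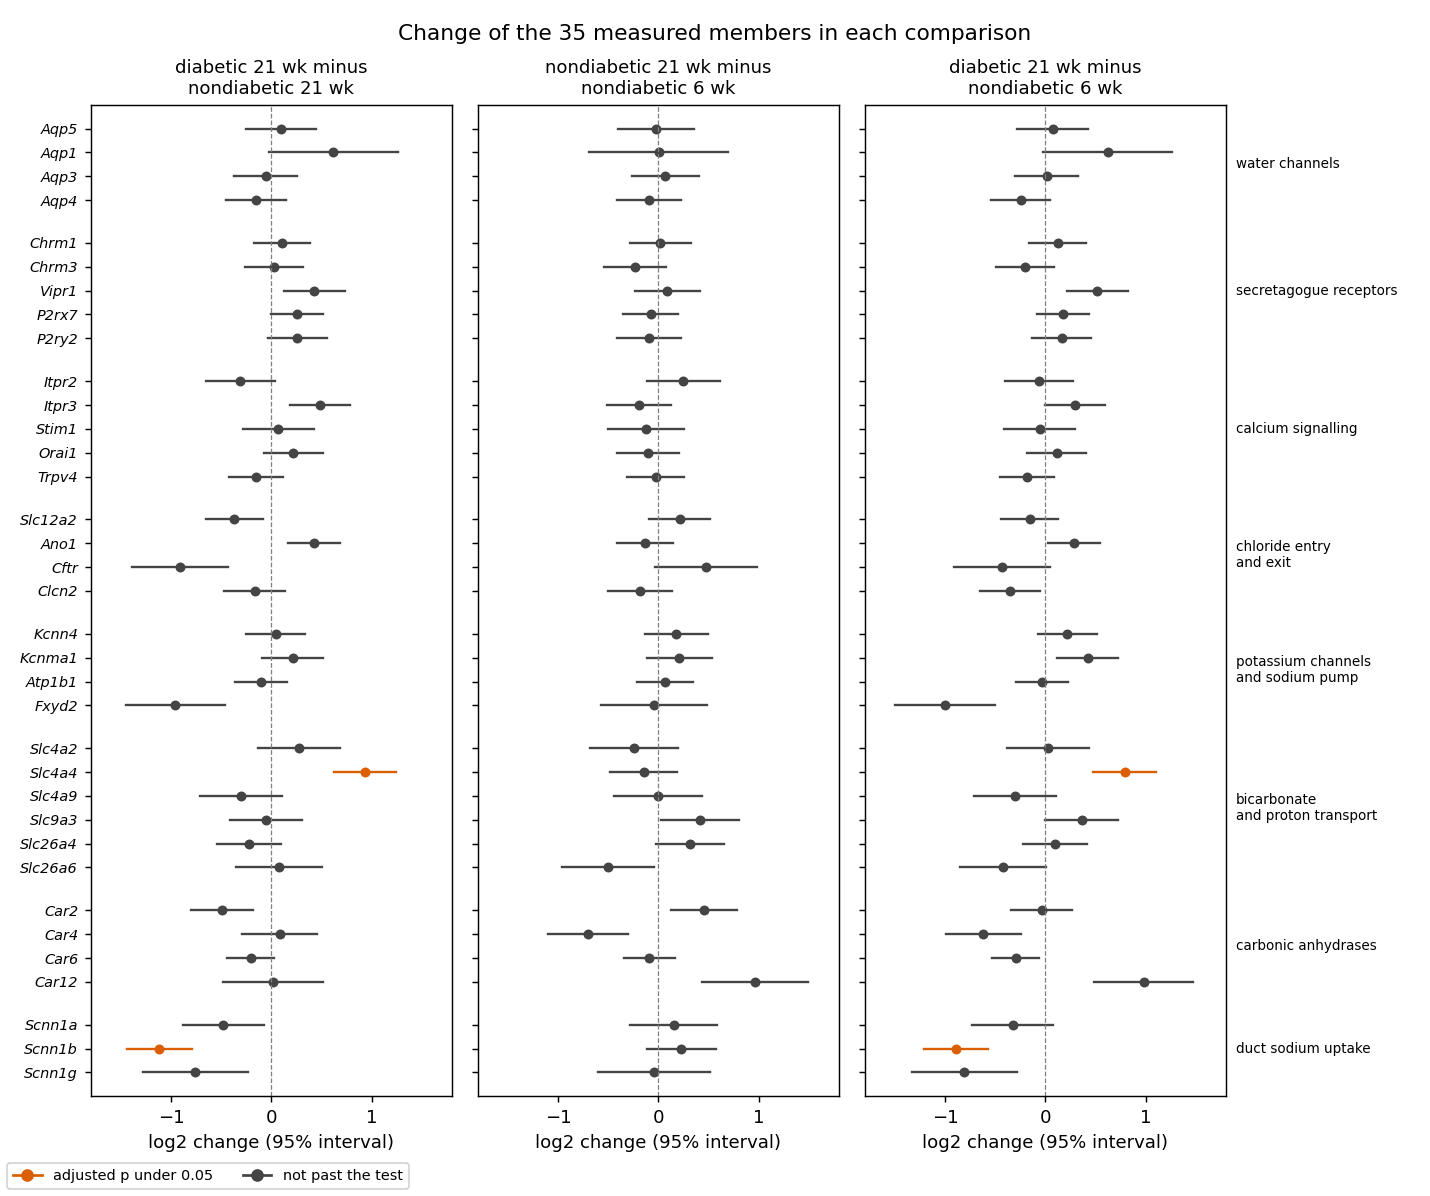
Change of each of the 35 measured members on the log2 scale in the 3 comparisons, ordered by role, with points for the difference of group means and lines for its 95% interval. Scnn1b and Slc4a4 pass an adjusted p of 0.05 in both comparisons with diabetic mice, and 0 members pass between the nondiabetic ages.

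The epithelial sodium channel, which takes sodium out of the saliva as it passes the ducts, had all 3 of its subunits lower in diabetic glands, and 1 of them passed the test. Scnn1b, the beta subunit, read 4.995, 5.25, 4.76 and 5.23 in diabetic arrays, against 6.10, 6.24 and 6.19 in nondiabetic 21-week arrays and 5.78, 5.88 and 6.18 in 6-week arrays. Every diabetic array lay below every nondiabetic array of either age. The change from nondiabetic 21-week mice was −1.12 ± 0.15 (95% interval −1.44 to −0.79, adjusted p = 0.00328), which ranked 31 of 18826 genes by p. It kept its call in all 17 alternative settings (adjusted p at most 0.0176), and was −1.17 without both arrays that stand apart.

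Scnn1g, the gamma subunit, read 4.49, 5.29, 4.89 and 5.30 in diabetic arrays, against 5.87, 5.67 and 5.72 in nondiabetic 21-week arrays and 5.23, 5.88 and 6.28 in 6-week arrays. Diabetic and nondiabetic 21-week arrays did not overlap, but 6-week array 1 lay within the diabetic values. Its change was −0.76 ± 0.24 (adjusted p = 0.154). Scnn1a, the alpha subunit, read 6.19, 6.39, 6.14 and 6.15 in diabetic arrays, against 6.64, 6.73 and 6.71 in nondiabetic 21-week arrays and 6.08, 6.48 and 7.06 in 6-week arrays. The nondiabetic 21-week arrays stood close together and above every diabetic array, while the 6-week arrays reached from below to above both. The change of Scnn1a was −0.48 ± 0.19 (adjusted p = 0.246). In the 6-week group array 1 was the lowest and array 3 the highest in all 3 subunits, and the same held for Cftr and Fxyd2.

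Scnn1g and Scnn1b are neighbours in the mouse RefSeq annotation, with no other protein-coding gene between them. Because both were low in diabetic arrays, the sequence around their annotated starts is shown, with that of Slc4a4, the member that rose. The windows are from RefSeq on build GRCm38.p6, all on the + strand, with 250 bases before the start in lower case and the first 50 bases after it in capitals. The Scnn1b window is chr7:121864788-121865087, the Scnn1g window chr7:121734229-121734528, and the Slc4a4 windows, at 2 annotated starts, chr5:88887010-88887309 and chr5:89027716-89028015.
Scnn1b: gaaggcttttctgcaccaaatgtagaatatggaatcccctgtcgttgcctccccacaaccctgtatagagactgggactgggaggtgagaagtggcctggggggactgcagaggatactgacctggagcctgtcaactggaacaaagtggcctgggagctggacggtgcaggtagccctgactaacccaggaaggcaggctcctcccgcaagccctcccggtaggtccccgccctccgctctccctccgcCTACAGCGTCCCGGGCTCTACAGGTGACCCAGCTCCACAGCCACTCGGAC
Scnn1g: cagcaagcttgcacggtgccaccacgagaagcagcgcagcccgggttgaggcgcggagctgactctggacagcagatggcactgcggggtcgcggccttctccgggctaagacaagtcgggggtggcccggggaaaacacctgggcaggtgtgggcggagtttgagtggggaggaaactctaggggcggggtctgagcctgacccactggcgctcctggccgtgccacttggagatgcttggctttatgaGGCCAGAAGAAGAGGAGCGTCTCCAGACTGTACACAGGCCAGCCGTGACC
Slc4a4 start 1: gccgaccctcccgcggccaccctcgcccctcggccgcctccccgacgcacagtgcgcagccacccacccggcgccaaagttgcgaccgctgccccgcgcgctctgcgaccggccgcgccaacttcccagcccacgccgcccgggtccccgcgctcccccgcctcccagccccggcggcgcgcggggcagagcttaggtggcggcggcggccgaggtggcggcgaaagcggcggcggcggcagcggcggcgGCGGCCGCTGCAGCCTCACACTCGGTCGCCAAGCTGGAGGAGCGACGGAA
Slc4a4 start 2: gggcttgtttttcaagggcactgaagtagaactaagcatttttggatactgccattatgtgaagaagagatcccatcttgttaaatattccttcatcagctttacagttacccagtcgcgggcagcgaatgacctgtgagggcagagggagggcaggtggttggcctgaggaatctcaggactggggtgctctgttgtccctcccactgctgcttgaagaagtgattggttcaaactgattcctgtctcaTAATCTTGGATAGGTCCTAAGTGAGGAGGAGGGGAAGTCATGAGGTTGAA
The share of G and C was 61.7% for Scnn1b, 64.7% for Scnn1g, and 80.0% and 48.3% at the Slc4a4 starts. Both strands were searched for TGTTCT, the half-site of the glucocorticoid and mineralocorticoid receptors, for CACGTG, the E-box bound by clock factors, and for TATAAA. The 4 windows held 0 matches, while the 3 words were found in 19.0%, 7.15% and 13.6% of all 32851 RefSeq windows of the same length. A word in a window is a description of its letters only. The array does not tell which Slc4a4 start was used.

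Slc4a4, which carries sodium and bicarbonate across the basolateral membrane of bicarbonate-secreting epithelia, read 5.36, 5.24, 5.43 and 5.09 in diabetic arrays, against 4.26, 4.43 and 4.35 in nondiabetic 21-week arrays and 4.19, 4.69 and 4.59 in 6-week arrays. Every diabetic array lay above all 6 nondiabetic arrays. The change was 0.94 ± 0.14 (95% interval 0.62 to 1.25, adjusted p = 0.00773). It passed in all 17 alternative settings and was 1.002 without both arrays that stand apart. The other 5 bicarbonate and proton transporters did not pass: the anion exchanger Slc4a2 had a change of 0.27 ± 0.19, Slc4a9 −0.30 ± 0.19, the sodium proton exchanger Slc9a3 −0.05 ± 0.17, the anion exchanger Slc26a6 0.08 ± 0.20 and pendrin, Slc26a4, −0.22 ± 0.15. Slc26a4 lay below the array's 25th percentile on 7 of 10 arrays, close to background. Slc26a6 was lowest on diabetic array 4, at 4.97, against 5.54 to 5.86 in the other diabetic arrays.

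**Figure D2:**
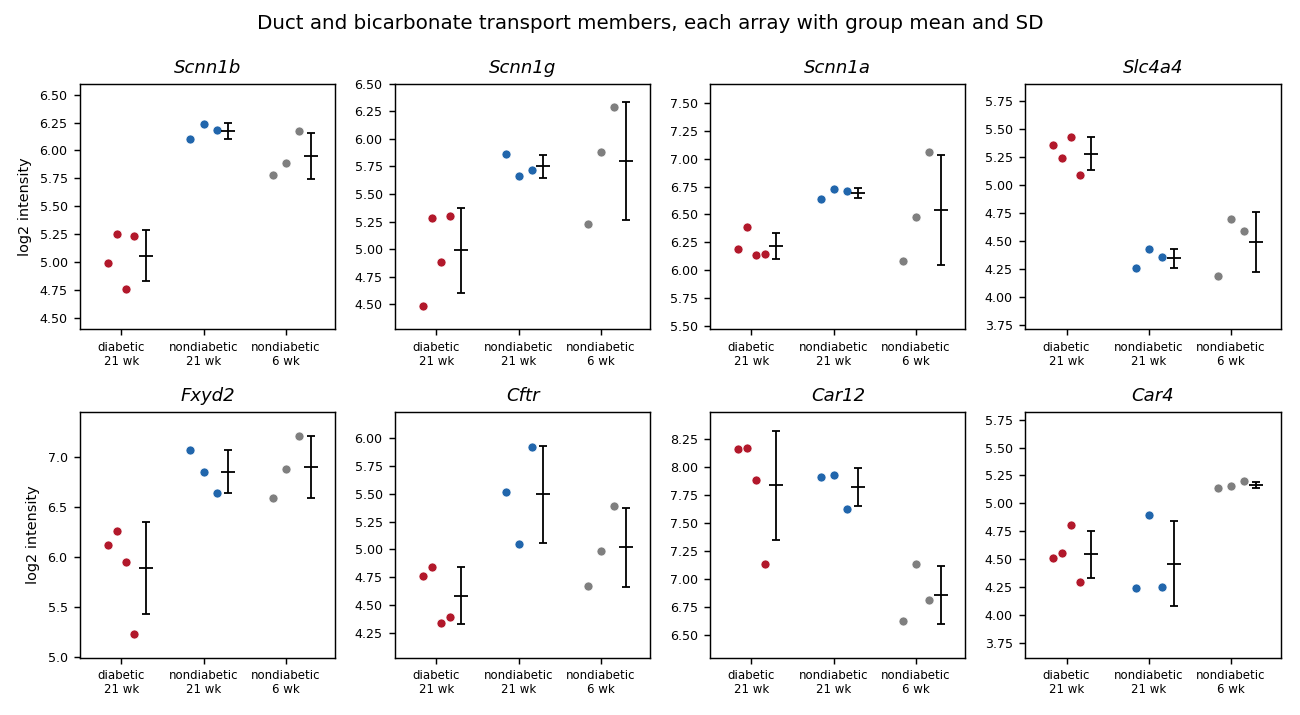
Log2 intensity of 8 members of duct and bicarbonate transport on each array, with a dot per mouse and the group mean and SD beside the dots. The scales differ between panels; the diabetic dots lie below all others for Scnn1b and Fxyd2 and above all others for Slc4a4.

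A pair of further members stood low in diabetic glands without passing the test. Fxyd2, a small regulator of the sodium pump, read 6.12, 6.26, 5.95 and 5.23 in diabetic arrays, against 7.06, 6.84 and 6.63 in nondiabetic 21-week arrays and 6.59, 6.87 and 7.21 in 6-week arrays. All 4 diabetic values were below all 6 nondiabetic values, with array 4 the lowest. The change was −0.96 ± 0.23 (adjusted p = 0.0639). It passed in 4 of 17 alternative settings (adjusted p 0.0328 to 0.149 over all of them). Cftr, the cyclic AMP-regulated chloride channel of duct cells, read 4.76, 4.85, 4.35 and 4.39 in diabetic arrays, against 5.51, 5.05 and 5.92 in nondiabetic 21-week arrays and 4.68, 4.99 and 5.39 in 6-week arrays. Diabetic arrays lay below the nondiabetic 21-week arrays but overlapped the 6-week arrays. The change was −0.91 ± 0.22 (adjusted p = 0.065), and −1.13 without nondiabetic 21-week array 2 (adjusted p = 0.0333). Without nondiabetic 21-week array 3, which had the highest Cftr of the 10, it was −0.70 (adjusted p = 0.225).

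Levels of several cell type marker lists also differed between the groups. Over 9 duct markers that are not members, the mean log2 level was 6.29 to 6.61 in diabetic arrays, against 6.66 to 6.75 in nondiabetic 21-week arrays and 6.52 to 6.77 in 6-week arrays, and 1 of the 9 fell. The duct markers did not all lie the same way: Ascl3, Elf5 and Esrrg were lower, and Krt8 and Krt18 higher, in every diabetic array than in every nondiabetic 21-week array. Markers of the granular convoluted tubule, the part of the submandibular duct that stores kallikreins, averaged 6.11 to 8.17 in diabetic arrays, against 10.46 to 11.24 in nondiabetic 21-week arrays and 9.50 to 9.91 in 6-week arrays, and 5 of 6 fell. Secretory cargo typical of the parotid averaged 8.14 to 8.69 in diabetic arrays, against 3.57 to 5.37 and 4.09 to 6.99 in nondiabetic arrays of 21 and 6 weeks, and 5 of 7 rose. Of these 22 markers 0 lay below the 25th percentile on 5 or more arrays. Of the other lists, acinar markers averaged 10.53 to 10.85 in diabetic arrays, against 8.11 to 10.29 in nondiabetic 21-week arrays, and 1 of 8 rose. Within that list Dcpp1 and Bpifa2 were higher, and Pip and Prol1 lower, in every diabetic array. Dcpp2 swung between nondiabetic 21-week arrays (5.01, 13.01 and 9.92, against 12.86 to 13.08 in diabetic arrays), while Bhlha15 overlapped between these groups. Sublingual mucous markers averaged 5.49 to 6.14 in diabetic arrays, against 4.15 to 5.73 in nondiabetic 21-week arrays, and 1 of 6 rose. Among them Muc19 read 2.03, 10.86 and 4.70 in nondiabetic 21-week arrays, against 10.6 to 11.7 in diabetic arrays. Myoepithelial markers averaged 4.88 to 5.23 in diabetic arrays, against 3.86 to 4.61 in nondiabetic 21-week arrays, and 2 of 6 rose. Macrophage markers averaged 5.83 to 6.54 in diabetic arrays, against 5.24 to 5.35 in nondiabetic 21-week arrays, and 2 of 8 rose. The part of these cells in the values of the members, duct or acinar, was not tested.

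Of the 5 measured secretagogue receptors 0 passed the test (1, Vipr1, at an unadjusted p under 0.05). Chrm3, the main muscarinic receptor for fluid secretion, read 6.59, 6.75, 6.60 and 6.25 in diabetic arrays, against 6.51, 6.59 and 6.46 in nondiabetic 21-week arrays and 6.64, 6.82 and 6.78 in 6-week arrays. The diabetic values reached below and above those of nondiabetic 21-week mice, and the 95% interval of the change was −0.26 to 0.32. Chrm1, the other muscarinic receptor of the gland, read 4.98, 4.73, 5.03 and 4.64 in diabetic arrays, against 4.72, 4.66 and 4.84 in nondiabetic 21-week arrays and 4.66, 4.84 and 4.66 in 6-week arrays. These groups overlapped, with a change of 0.10 ± 0.13 (interval −0.18 to 0.39). Vipr1, a receptor for vasoactive intestinal peptide, had 0.43 ± 0.14 (adjusted p = 0.166), P2rx7, an ATP-gated cation channel, 0.25 ± 0.12, and P2ry2, a nucleotide receptor, 0.26 ± 0.14. All 5 changes were positive, with Chrm1 and Chrm3 turning negative under quantile normalization (−0.0073 and −0.108), and the median of the 5 was 0.25. Levels of different probe sets are not compared here, since a probe set's brightness depends on its own sequence.

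Calcium signalling, the step between receptor and channel, had 5 measured members and 0 passed (1, Itpr3, at an unadjusted p under 0.05). Itpr3, an inositol trisphosphate receptor that releases stored calcium, read 6.14, 6.22, 6.23 and 6.42 in diabetic arrays, against 5.91, 5.87 and 5.53 in nondiabetic 21-week arrays and 5.78, 6.01 and 6.09 in 6-week arrays. Its diabetic values lay above those of both nondiabetic groups, with a change of 0.48 ± 0.14 from nondiabetic mice of the same age (adjusted p = 0.109). A dimmer probe set of Itpr3 had a change of 0.09. Itpr2, the other acinar isoform in the list, was lower in each diabetic array than in each nondiabetic 21-week array, with −0.31 ± 0.16 (adjusted p = 0.364). Stim1, the sensor of empty calcium stores, had 0.07 ± 0.16, Orai1, the channel it opens, 0.22 ± 0.14, and Trpv4, a cation channel opened by cell swelling, −0.15 ± 0.12.

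The chloride pathway of the acinar cell had a negative change at entry and a positive one at exit, and neither step passed the test. Slc12a2, the sodium potassium chloride cotransporter of entry, read 10.76, 10.95, 10.74 and 10.57 in diabetic arrays, against 11.34, 11.02 and 11.005 in nondiabetic 21-week arrays and 10.86, 10.94 and 10.93 in 6-week arrays. Diabetic arrays were below nondiabetic 21-week arrays and overlapped the 6-week arrays, with a change of −0.37 ± 0.13 (adjusted p = 0.203). Ano1, the calcium-activated chloride channel of exit, read 8.32, 8.45, 8.25 and 8.39 in diabetic arrays, against 7.98, 7.74 and 8.06 in nondiabetic 21-week arrays and 7.99, 8.12 and 8.07 in 6-week arrays. All 4 diabetic values were above all 6 nondiabetic values, by 0.42 ± 0.12 over nondiabetic mice of the same age (adjusted p = 0.109). Clcn2, a chloride channel gated by voltage, had −0.17 ± 0.14.

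Potassium channels and the sodium pump set the electrical force for chloride exit. Kcnn4, the intermediate conductance potassium channel, read 8.88, 8.87, 8.90 and 8.47 in diabetic arrays, against 8.89, 8.65 and 8.67 in nondiabetic 21-week arrays and 8.48, 8.64 and 8.56 in 6-week arrays. The groups overlapped and the 95% interval of the change was −0.25 to 0.34. Kcnma1, the large conductance channel, had 0.21 ± 0.14 and Atp1b1, the beta subunit of the pump, −0.10 ± 0.12. Fxyd2, given above, was the 1 of 4 in this group with an unadjusted p under 0.05. Aqp5 read 9.23, 9.21, 9.01 and 8.59 in diabetic arrays, against 9.07, 8.91 and 8.75 in nondiabetic 21-week arrays and 8.98, 9.02 and 8.81 in 6-week arrays. Diabetic array 4 held the lowest and array 1 the highest value of all 10, so the groups overlapped throughout, and the change lay between −0.25 and 0.45 with 95% confidence (adjusted p = 0.814). Aqp1, the water channel of capillary endothelium, had 0.62 ± 0.30 (adjusted p = 0.335) with nondiabetic 21-week arrays reaching from 4.57 to 5.94. The mean of 7 endothelial markers was 5.37 to 6.01 in diabetic arrays, against 5.33 to 5.83 in nondiabetic 21-week arrays, which also overlapped. Aqp3 and Aqp4 had changes of −0.06 ± 0.15 and −0.15 ± 0.14.

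**Figure D3:**
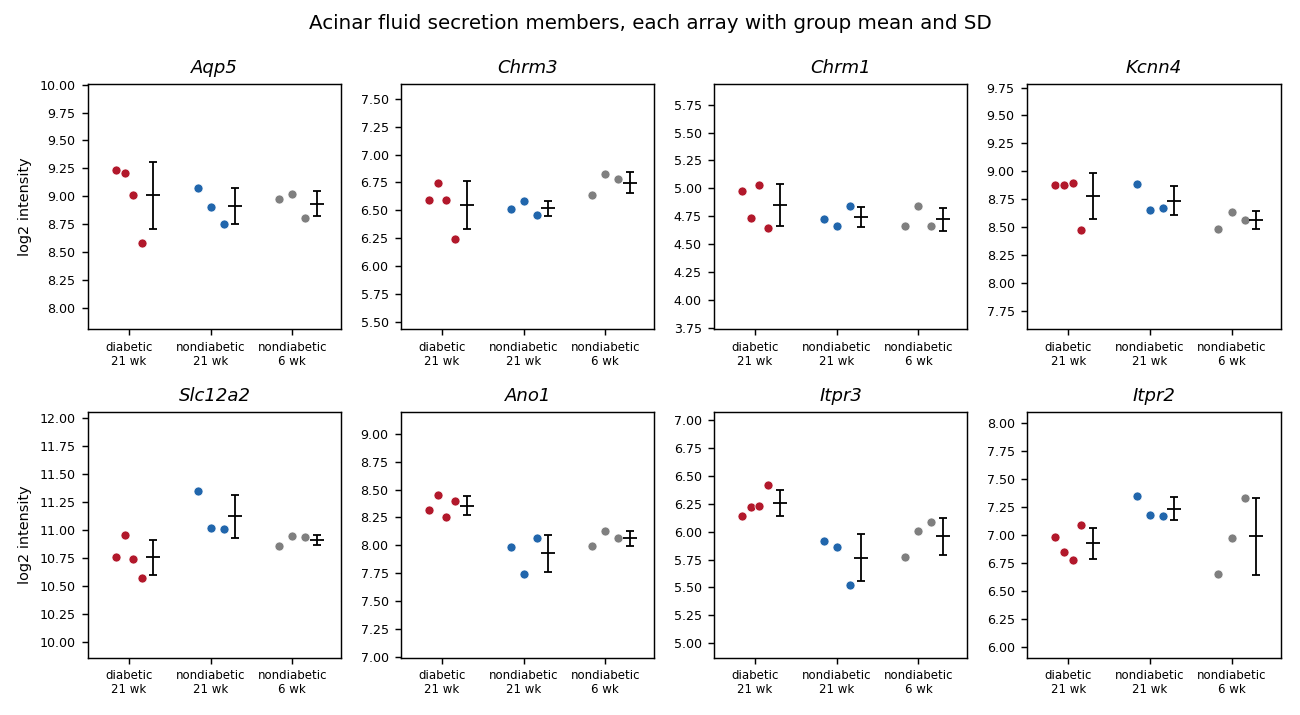
Log2 intensity of 8 members of acinar fluid secretion on each array, with a dot per mouse and the group mean and SD beside the dots. Diabetic and nondiabetic dots overlap for Aqp5, Chrm3, Chrm1 and Kcnn4, while all diabetic dots lie above the nondiabetic ones for Ano1 and Itpr3.

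Carbonic anhydrases, which make bicarbonate and protons from carbon dioxide, had 4 measured members and 0 passed (1, Car2, at an unadjusted p under 0.05). Car2, the cytosolic enzyme, read 5.56, 5.89, 5.54 and 5.96 in diabetic arrays, against 6.21, 6.37 and 6.10 in nondiabetic 21-week arrays and 5.76, 5.65 and 5.91 in 6-week arrays. The diabetic arrays lay below the nondiabetic arrays of their age, with a change of −0.49 ± 0.14 (adjusted p = 0.116), and overlapped the 6-week arrays. Car2 passed with quantile normalization and with array weights, which give less weight to arrays that deviate. Car6, the secreted enzyme of saliva, had −0.20 ± 0.11, Car4, a membrane-anchored enzyme, 0.08 ± 0.17, and Car12, a membrane enzyme of absorbing and secreting epithelia, 0.02 ± 0.23. All 4 diabetic Car6 values were below all 6 nondiabetic values. Car6 read at most 12.41, near the brightest values of each array (13.13 to 13.23). In diabetic mice Car12 was 7.13 on array 4, against 7.89 to 8.17 on the other 3 arrays.

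Among the 33 members that did not pass, 13 had a 95% interval of change that stayed within 0.5 log2 units of 0. They were Aqp5, Aqp3, Aqp4, Chrm1, Chrm3, Stim1, Trpv4, Clcn2, Kcnn4, Atp1b1, Slc9a3, Car4 and Car6. For the remaining members the interval reached further. Intervals were not counted over all genes. A change under 0.5 in size, whatever its interval, was held by 29 of the 35 members and by 17516 of all 18826 genes. The median SD between mice of 1 group over the 35 members was 0.17 in diabetic, 0.17 in nondiabetic 21-week and 0.16 in 6-week arrays. Over all genes it was 0.18, 0.19 and 0.15 in the same order. Diabetic array 4 held the lowest diabetic value in 13 of 35 members (37.1%, against 31.6% of all genes), among them Aqp5, Chrm3, Kcnn4, Fxyd2 and Car12. It held the highest in 7 (20.0%, against 30.2% of all genes), namely Aqp3, Itpr2, Itpr3, Trpv4, Slc4a9, Car2 and Scnn1g.

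**Figure D4:**
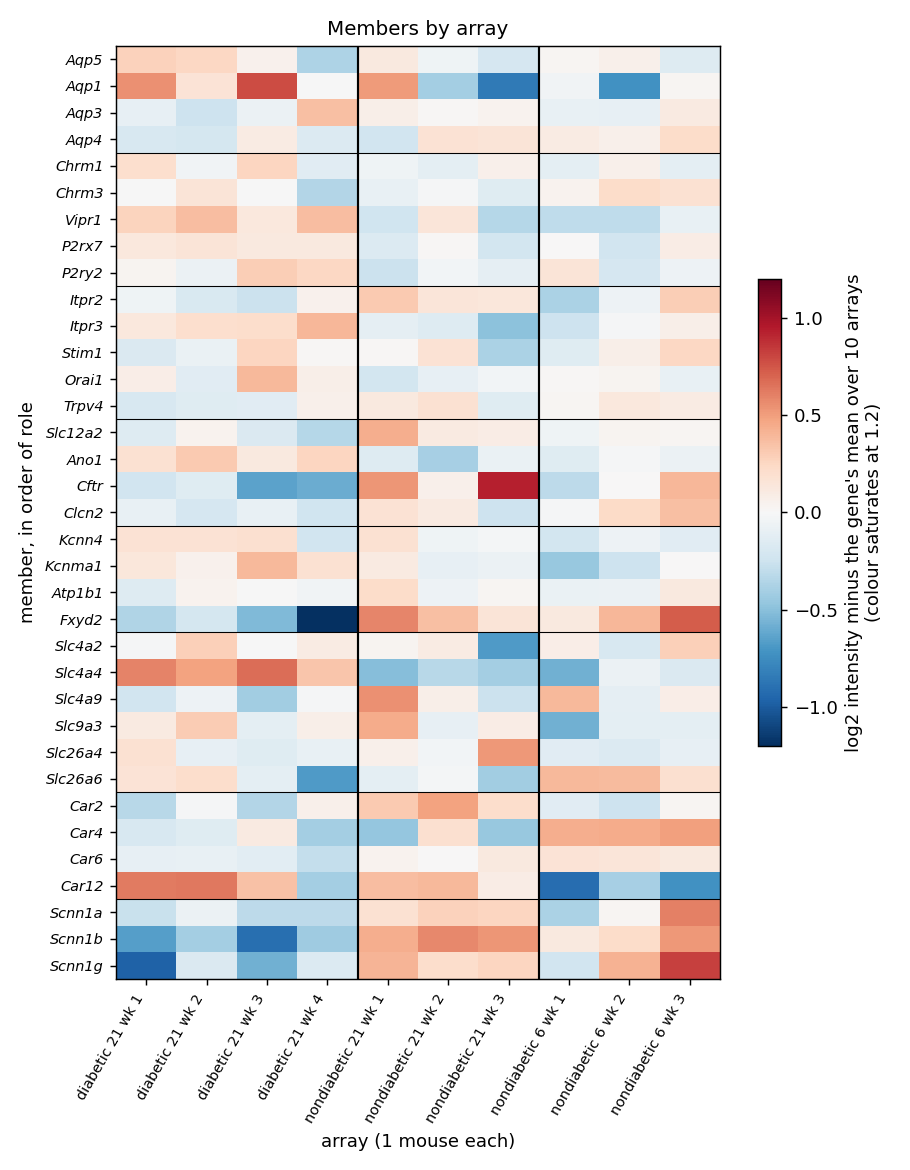
Each member on each array as log2 intensity minus the gene's mean over the 10 arrays, with members ordered by role and arrays by group, and colour saturating at 1.2. The 3 sodium channel subunits, Cftr and Fxyd2 are low across the 4 diabetic arrays, Slc4a4 is high there, and Car12 is low in the 3 arrays of 6-week mice and on diabetic array 4.

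The second comparison asked how glands differ with age in mice without diabetes, with 21 weeks set against 6 weeks. By limma 0 of 35 members passed, against 0.0266% of all genes (5 of 18826). At an unadjusted p under 0.05 there were 5 members (14.3%, against 7.47% of all genes), 3 higher and 2 lower. In 9 members (25.7%, against 13.8% of all genes) the groups did not overlap. The carbonic anhydrases held the smallest p-values. Car12 read 7.91, 7.93 and 7.62 in nondiabetic 21-week arrays, against 6.62, 7.14 and 6.81 in 6-week arrays. All older values lay above all younger ones, by 0.97 ± 0.24 (adjusted p = 0.473).

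Car4 read 4.24, 4.90 and 4.25 in nondiabetic 21-week arrays, against 5.14, 5.15 and 5.20 in 6-week arrays. The younger values were nearly equal and above all older ones, with a change of −0.70 ± 0.18 (adjusted p = 0.481). Car2 had 0.46 ± 0.15 and Slc9a3 0.42 ± 0.18, each without overlap between the ages. Slc26a6, an apical anion exchanger, read 5.53, 5.63 and 5.24 in nondiabetic 21-week arrays, against 6.04, 6.03 and 5.84 in 6-week arrays. It was lower in each older array than in each younger one, with a change of −0.50 ± 0.21 (adjusted p = 0.635). Aqp5 had −0.02 ± 0.17 (95% interval −0.40 to 0.35), Ano1 −0.13 ± 0.13 and Chrm3 −0.23 ± 0.14. For Scnn1b the change with age was 0.23 ± 0.16 and for Slc4a4 −0.14 ± 0.15. The mean of 5 T cell markers was 4.27 to 5.07 in nondiabetic 21-week arrays, against 3.61 to 3.88 in 6-week arrays, and that of 5 B cell markers 3.61 to 4.29, against 3.27 to 3.30. The levels did not overlap between the ages, 0 of the 10 markers passed the test, and their part in these values was not tested.

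The third comparison set diabetic mice at 21 weeks against nondiabetic mice at 6 weeks, so that diabetes and age differ together. It shares the diabetic arrays with the first comparison and the 6-week arrays with the second, and the first and second share the nondiabetic 21-week arrays, so none of the 3 is independent of the others. Scnn1b and Slc4a4 were again the 2 of 35 members that passed (5.71%, against 1.44% of all genes), Scnn1b falling 1.85-fold (−0.89 ± 0.15, adjusted p = 0.0133) and Slc4a4 rising 1.73-fold (0.79 ± 0.14, adjusted p = 0.0209). At an unadjusted p under 0.05 there were 12 members (34.3%, against 14.9% of all genes), 6 higher and 6 lower, and 12 members (34.3%, against 16.7%) did not overlap. The Scnn1b call was lost without 6-week array 2 (adjusted p = 0.0577) or 3 (0.085). The Slc4a4 call was lost without diabetic array 3 (adjusted p = 0.072), 6-week array 1 (0.0844) or 6-week array 3 (0.0725).

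Fxyd2 had −1.0 ± 0.23 (adjusted p = 0.0534) and Car12 0.98 ± 0.23 (adjusted p = 0.0572) in this comparison. Fxyd2 passed in 6 and Car12 in 7 of 17 alternative settings, with adjusted p up to 0.206 for each. Car12 averaged 7.84 ± 0.49 in diabetic mice (SD, n = 4), 7.82 ± 0.17 in nondiabetic 21-week mice and 6.86 ± 0.26 in 6-week mice (SD, n = 3 each). The means of both older groups stood above that of the younger one, but diabetic array 4 (7.13) lay within the 6-week values (6.62 to 7.14). Without diabetic array 4 its change was 1.22 and passed (adjusted p = 0.00477). Vipr1 had 0.52 ± 0.14, Car4 −0.62 ± 0.17, Scnn1g −0.81 ± 0.24, Kcnma1 0.42 ± 0.14 and Car6 −0.29 ± 0.11, and these did not pass. Cftr, at −0.43 ± 0.22, and Scnn1a, at −0.32 ± 0.19, overlapped between diabetic and 6-week mice. Over the 35 members the median change was −0.03, and over all genes it was −0.02.

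A wider list of 132 transport, junction and signalling genes, of which 115 were measured, was read in the same way. The list was chosen with earlier results of these data known, so its shares of called genes are descriptions only. Between diabetic and nondiabetic 21-week mice 5 of the 115 rose, 4 fell and 106 did not pass (7.83% called, against 1.44% of all genes). With age 0 of 115 passed (6 at an unadjusted p under 0.05, which is 5.22%, against 7.47% of all genes). Between diabetic and 6-week mice 3 rose and 2 fell (4.35% called, against 1.44% of all genes). Car3, a carbonic anhydrase known mainly from adipose tissue and muscle, read 6.89, 7.91, 6.42 and 6.93 in diabetic arrays, against 4.28, 3.96 and 3.07 in nondiabetic 21-week arrays and 4.16, 3.76 and 4.10 in 6-week arrays. It rose 9.63-fold (3.27 ± 0.33, adjusted p = 0.000462), with every diabetic array far above every nondiabetic one. The mean of 7 adipocyte markers was 4.47 to 4.83 in diabetic arrays, against 3.72 to 4.15 in nondiabetic 21-week arrays, 3 of the 7 rose, and 1 was below the 25th percentile on 5 or more arrays. The mean of 7 skeletal muscle markers was 3.29 to 3.38 in diabetic arrays, against 3.42 to 3.47 in nondiabetic 21-week arrays, with 3 of the 7 below the 25th percentile on 5 or more arrays. The part of fat cells in the Car3 rise was not tested.

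Among proton and bicarbonate genes, Car13, a cytosolic carbonic anhydrase, read 4.79, 4.97, 4.14 and 4.47 in diabetic arrays, against 5.75, 5.64 and 5.68 in nondiabetic 21-week arrays and 5.11, 5.23 and 5.38 in 6-week arrays, and fell 2.14-fold from the nondiabetic mice of its age (adjusted p = 0.00921). Atp6v0d2, a subunit of the vacuolar proton pump, read 6.73, 6.51, 6.21 and 5.80 in diabetic arrays, against 7.63, 7.44 and 7.58 in nondiabetic 21-week arrays and 7.11, 7.25 and 7.85 in 6-week arrays. Both genes were lower in all 4 diabetic arrays than in all 6 nondiabetic arrays. Atp6v0d2 fell 2.36-fold (adjusted p = 0.0157), a call lost without diabetic array 3 or nondiabetic 21-week array 1 or 3 (adjusted p = 0.0587, 0.0552 and 0.0715). Slc4a11, a transporter related to the bicarbonate carriers, fell 2.25-fold (adjusted p = 0.0447), a call lost without diabetic array 2, 3 or 4 or any 1 nondiabetic 21-week array (highest adjusted p 0.145).

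**Figure D5:**
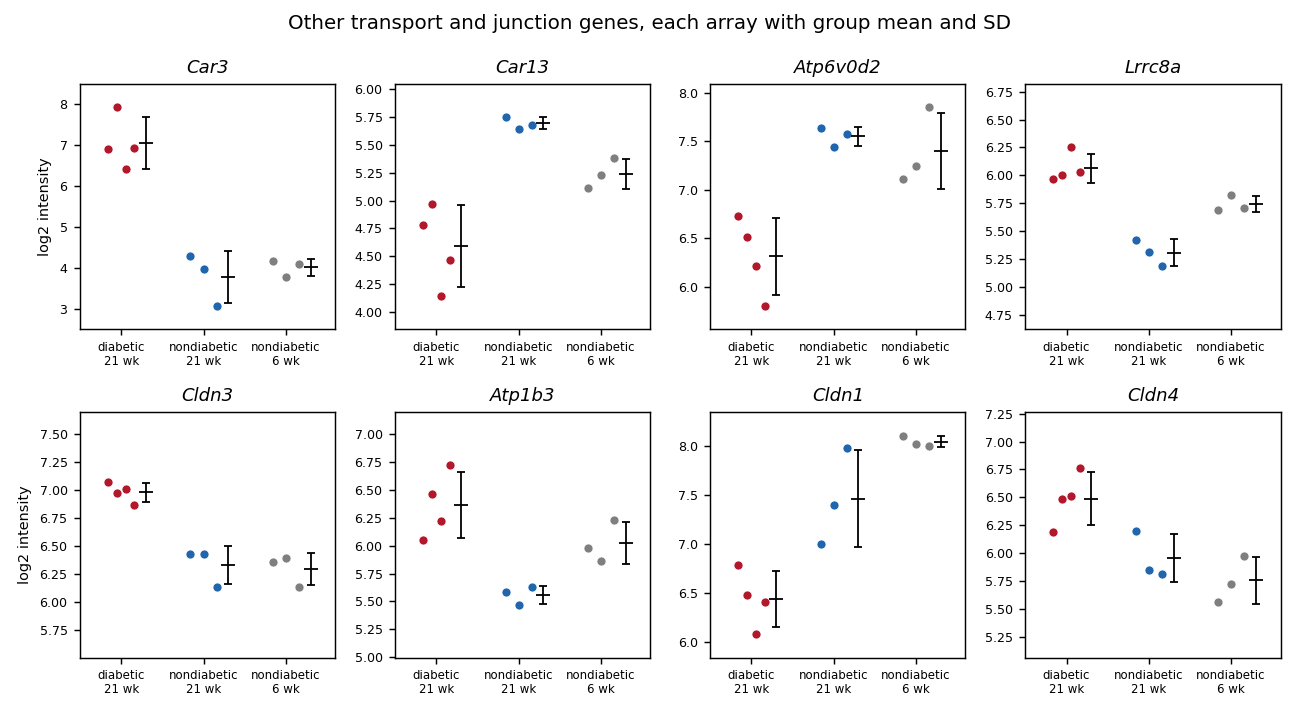
Log2 intensity of 8 genes of the wider transport and junction list on each array, with a dot per mouse and the group mean and SD beside the dots; the scales differ between panels. Diabetic dots lie above all nondiabetic dots for Car3, Lrrc8a and Cldn3 and below them for Car13, Atp6v0d2 and Cldn1.

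Chloride, pump and junction genes made up the rest. Lrrc8a, the required subunit of the volume-regulated anion channel, read 5.97, 6.005, 6.26 and 6.03 in diabetic arrays, against 5.43, 5.32 and 5.19 in nondiabetic 21-week arrays and 5.69, 5.83 and 5.71 in 6-week arrays. The nondiabetic 21-week arrays were the lowest of the 3 groups and the diabetic arrays the highest, with a rise of 1.69-fold between them (adjusted p = 0.00921). Atp1b3, a beta subunit of the sodium pump, rose 1.75-fold (adjusted p = 0.0309), Ano10, a member of the Ano1 family, 1.46-fold (adjusted p = 0.0409) and Cldn3, a claudin of tight junctions, 1.57-fold (adjusted p = 0.0268). The Atp1b3 call was lost without diabetic array 2 or 3 or any 1 nondiabetic 21-week array (highest adjusted p 0.0881), and that of Cldn3 without diabetic array 1, 2 or 3 or nondiabetic array 1 or 3 (highest 0.112). Both were also lost with quantile normalization, and that of Ano10 was lost there and whichever array of the 2 groups was left out (highest 0.148). Cldn1, another claudin, read 6.79, 6.48, 6.08 and 6.41 in diabetic arrays, against 7.003, 7.40 and 7.98 in nondiabetic 21-week arrays and 8.11, 8.02 and 8.005 in 6-week arrays, with the diabetic arrays lowest and the youngest mice highest. It fell 2.03-fold against nondiabetic mice of the same age (adjusted p = 0.0334), a call lost without diabetic array 2, 3 or 4 or nondiabetic 21-week array 2 or 3 (highest 0.12). Against 6-week mice it fell 3.05-fold (adjusted p = 0.00415), a call kept in all 17 alternatives. Without both arrays that stand apart, 3 of the 9 genes passed between diabetic and nondiabetic 21-week mice, namely Car3, Lrrc8a and Car13.

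Against 6-week mice the 5 genes of the wider list that passed were Car3 (rise of 8.18-fold, adjusted p = 0.00137), Cldn1, Cldn3 (1.61-fold rise, adjusted p = 0.0228), Atp6v0d2 (2.13-fold fall, adjusted p = 0.0315) and Cldn4, a claudin of tight epithelia (1.66-fold rise, adjusted p = 0.0458). The calls of Cldn3, Atp6v0d2 and Cldn4 were each lost without diabetic array 2 or 3 or any 1 of the 6-week arrays, and that of Cldn4 also without diabetic array 4, with adjusted p up to 0.119, 0.142 and 0.183. Cldn4 also lost its call with no filter (adjusted p = 0.0586), quantile normalization (0.0607), a block for replicate number (0.14) and without both arrays that stand apart (0.0542). Atp6v0d2 also lost its call with the block (0.0842). In the group of other receptors and G proteins 0 of 14 passed in any of the 3 comparisons, and 0 of 15 other calcium and cyclic AMP genes and 0 of 7 other genes of duct sodium uptake did. At an unadjusted p under 0.05 in the first comparison there were 2 of the receptors (14.3%), 1 of the calcium and cyclic AMP genes (6.67%) and 1 of the duct sodium genes (14.3%), against 15.8% of all genes. With age the 3 groups held 0 such genes, against 7.47% of all genes. In diabetic against 6-week mice 3 of the calcium and cyclic AMP genes (20.0%), 0 receptors and 0 duct sodium genes did so, against 14.9% of all genes.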

How the data were processed

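Salivary gland cells were isolated with dispase and collagenase, RNA was extracted with Trizol, and fragmented sense cDNA was labelled with biotin for the arrays, per the labels' protocols. Per the submitters' processing notes, the authors summarised probes with RMA, run in Affymetrix Power Tools, and what they deposited are log2 intensities, 1 per probe set and array. Versions, RMA settings and the genome build were not given in the sources used here.

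Of 41345 probe sets, 23521 had 1 symbol in the array's gene table, 1814 had several and 16010 were unnamed here. Probe sets with 1 symbol above the array's 25th percentile on at least 3 arrays were kept, and the one with the highest mean over the 10 arrays stood for a gene, leaving 18826 genes. A mean per group was estimated in limma 3.58.1 in R 4.3.3 (lmFit, eBayes, 7 residual and 5.61 prior degrees of freedom), and 3 contrasts were tested two-sided. The steps were also run on simulated data. Its noise was independent between genes and arrays, so it does not cover deviations that the genes of an array share. The number of arrays limits the precision.

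All members were accounted for. Values on every array were given for members past the threshold, for the 4 smallest p-values of each comparison and for a fixed set of secretion genes. Those of Itpr3 were given as well, outside this rule. Genes of the wider list were named from the 6 smallest p-values, and 3 more that passed were named after their values were seen. The members, the wider list, the marker lists and the alternatives were chosen with earlier results of these data known. The labels do not say that replicate numbers pair mice, and the numbers were not taken as pairs. The correlations of same-numbered arrays' deviations from their group means were −0.12 to 0.07 over 9 pairs. Differently numbered arrays were not compared in this way.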

Additional observations from a re-analysis of the deposited data

Results flagged for a closer look

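In the group of 4 diabetic arrays each member's highest and lowest value was set against the other 3. A value was taken as standing apart where its gap to the nearest array exceeded Dixon's 95% critical share of the group's range. This held for 3 of 35 members. For independent, normally spread values about 1 group in 20 would exceed it. The rule was run on the members only, so the share over all genes is not known and the count is not read as an excess. Kcnn4, the intermediate conductance potassium channel, was 8.47 on diabetic array 4, against 8.87 to 8.90 on the other 3. Aqp4 was 3.17 on diabetic array 3, against 2.86 to 2.91. Slc26a4, near background, was 2.85 on diabetic array 1, against 2.53 to 2.58. Groups of 3 arrays were not examined in this way.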

How the results depend on the processing

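Of 20 changes of single members followed through up to 17 alternatives, 9 kept direction and call in all. In diabetic against nondiabetic 21-week mice, quantile normalization turned the sign of 4 changes near 0: Aqp5 (−0.015), Chrm3 (−0.108), Chrm1 (-0.0073) and Kcnn4 (−0.061). Averaging all probe sets of a gene turned Chrm1 to −0.036, and Chrm3 ranged from −0.039 to 0.128 as single arrays were left out. The 2 members called in that comparison became 4 with trended and robust variance (adding Cftr and Fxyd2), with array weights and with quantile normalization (each adding Car2 and Fxyd2). With age, 0 members became 1 (Car12) without both arrays that stand apart. Against 6-week mice the 2 became 4 with a filter at the median, trended and robust variance, median centring or without both arrays. They became 5 with array weights, 3 with quantile normalization or the replicate block, and 0 to 3 with single arrays left out. The wider list's 9 calls for diabetes became 5 with the replicate block or with only the 2 groups fitted, 3 without both arrays and 3 to 7 with single arrays left out. Its 5 against 6-week mice became 3 with the replicate block, 8 with array weights and 2 to 5 with single arrays left out. The block, for numbers that were not taken to pair mice, leaves diabetic array 4 without a partner and so without weight. It left the 2 member calls for diabetes in place and moved all calls for diabetes to 204. Over all genes the 271 calls for diabetes became 161 with only the 2 groups fitted, 175 without both arrays and 84 to 268 with single arrays left out. The 5 with age became 12 with trended and robust variance, 18 with array weights, 0 with only the 2 groups fitted, 39 without both arrays and 1 to 10 with single arrays left out. The 272 against 6-week mice became 672 with array weights, 505 without both arrays and 48 to 261 with single arrays left out. The causes were not tested.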

Other observations

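Of the 35 measured members, Chrm1, Itpr3 and Kcnma1 had a second, dimmer probe set with 1 symbol. Between diabetic and nondiabetic 21-week mice the second probe sets had changes of −0.18, 0.09 and −0.04, where the brighter ones had 0.10, 0.48 and 0.21. The sign differed for Chrm1 and Kcnma1.

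RefSeq start windows of 300 bases were found for 28 of the 35 members (32 windows). The E-box word CACGTG stood in 7 of the 32 windows (21.9%, against 7.15% of all windows), at Aqp5, Car6, Itpr3, Kcnn4, Slc9a3 and both starts of P2ry2. TGTTCT stood in 1 window (3.12%, against 19.0% of all windows), at Slc26a4. TATAAA stood in 3 (9.38%, against 13.6% of all windows), at Aqp3, Car4 and Slc26a4. These shares were not adjusted for base composition and were not tested.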
